A study of Mus musculus with 9 samples.

Results

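Mitochondrial ribosomal protein genes were described in the nucleus and the cytoplasm of mouse oocytes that have or lack MTR4, a helicase that hands RNA to the nuclear exosome for decay. Members were all genes whose symbol is Mrpl or Mrps followed by a number and at most one letter. There were 76 of them among 23235 gene symbols, 47 for the large subunit (Mrpl) and 29 for the small subunit (Mrps). The choice used symbols and no measured value. The oocytes were labelled MTR4-null or WT, at day 21. Each was parted by micromanipulation into a nucleus and a cytoplasm, with 10 nuclei or cytoplasms pooled in a library. Total RNA was depleted of ribosomal RNA and sequenced. The labels list 2 libraries of MTR4-null nuclei, 3 of WT nuclei, 2 of MTR4-null cytoplasms and 2 of WT cytoplasms. The allele, the cells in which it was deleted and the strain are not given in the sources used here. The values are the authors' mean FPKM, a fragment count scaled to transcript length and to the size of the library, with 1 column for each group. They carry no replicates, so each difference is between 2 columns and its error is unknown.

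The mitochondrial ribosome translates the few proteins encoded by mitochondrial DNA, all of them subunits of the oxidative phosphorylation complexes. Its ribosomal RNAs are mitochondrial transcripts, whereas its proteins are encoded in the nucleus, made in the cytosol and imported. Some of these proteins descend from bacterial ribosomal proteins and others were added in mitochondria. The small subunit decodes the mRNA, and the large subunit forms peptide bonds at the inner membrane. Oocytes carry a very large stock of mitochondria, which the embryo inherits.

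The starts of these genes were searched for motifs of factors known to act on nuclear genes of mitochondria. A window of 300 bases, 250 before and 50 after the start, was available from RefSeq (GRCm38.p6) for 67 of the 76 genes. Mrpl13, Mrpl15, Mrpl19, Mrpl38, Mrpl4, Mrpl54, Mrps28, Mrps34 and Mrps35 had no entry. Searched on both strands, the ETS letters CCGGAAG, read by the GABP (NRF2) family, were in 24 of the 67 windows (35.8%), against 19.1% of 10313 windows of coding genes above the expression filter given below. The YY1 letters AAGATGG were in 13 windows (19.4%), against 8.34%. The NRF1 letters, GCGCA and GCGC with any base between them, were in 12 windows (17.9%), against 11.1%. At least 1 of these motifs was in 41 windows (61.2%), against 33.5%. The TATA box letters TATAAA were in 5 windows (7.46%), against 9.24%. The ETS and YY1 letters share AAG and can overlap there, in which case a window counts for both. A match is a description of letters, not of a bound site. Stretches before the start of Mrpl43, Mrpl52, Mrps27 and Mrps22 are printed as examples. These genes are among those named below for their differences between genotypes, and they hold the ETS letters there. Others with these letters in the window differed more and are not printed. Between nuclei Mrps26 and Mrps23 differed more than Mrpl52, and between cytoplasms Mrpl48 and Mrps16 more than Mrps22. Mrpl43 and Mrpl52 were higher in MTR4-null nuclei, and Mrps27 and Mrps22 were lower in MTR4-null cytoplasms. The stretches are chr19:45006443-45006557 on the minus strand for Mrpl43, chr14:54426659-54426908 on the plus strand for Mrpl52, chr13:99344706-99344785 on the plus strand for Mrps27 and chr9:98601680-98601929 on the minus strand for Mrps22. All end 1 base before the RefSeq start and hold no annotated exon. Capitals mark the ETS letters or their reverse complement, CTTCCGG, and in Mrpl52 also the YY1 letters.
Mrpl43: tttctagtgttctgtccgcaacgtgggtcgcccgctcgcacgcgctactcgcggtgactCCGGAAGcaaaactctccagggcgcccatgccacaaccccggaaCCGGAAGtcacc
Mrpl52: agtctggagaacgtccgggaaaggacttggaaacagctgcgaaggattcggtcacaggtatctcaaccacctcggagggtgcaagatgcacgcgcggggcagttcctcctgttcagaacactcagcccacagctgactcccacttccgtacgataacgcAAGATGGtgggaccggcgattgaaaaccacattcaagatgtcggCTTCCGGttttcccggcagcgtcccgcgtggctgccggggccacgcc
Mrps27: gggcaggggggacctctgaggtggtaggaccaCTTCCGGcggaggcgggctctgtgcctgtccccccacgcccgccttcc
Mrps22: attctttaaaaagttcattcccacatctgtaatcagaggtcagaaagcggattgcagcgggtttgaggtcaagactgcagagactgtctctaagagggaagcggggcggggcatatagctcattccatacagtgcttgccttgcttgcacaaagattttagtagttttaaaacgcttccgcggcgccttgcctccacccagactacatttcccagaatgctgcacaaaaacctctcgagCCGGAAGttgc
The ETS letters begin 56 and 12 bases before the start in Mrpl43, 47 bases before it in Mrpl52, 48 in Mrps27 and 11 in Mrps22. The YY1 letters of Mrpl52 begin 91 bases before the start.

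**Figure D1:**
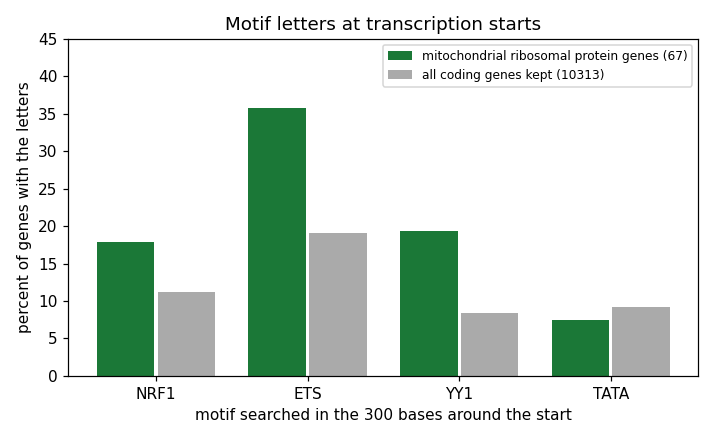
Bars give the percentage of genes whose 300-base window at the start holds the letters of each motif, for 67 mitochondrial ribosomal protein genes (green) and 10313 coding genes (grey). The green bar is taller for ETS (35.8% against 19.1%), YY1 and NRF1, and shorter for TATA (7.46% against 9.24%).

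The transcript of Mtr4, listed as Skiv2l2, had 2.91 FPKM in MTR4-null nuclei against 16.2 FPKM in WT nuclei, and 2.51 FPKM in MTR4-null cytoplasms against 21.6 FPKM in WT cytoplasms. All 13 oocyte markers, among them Gdf9 and Zp3, were above 20 FPKM in every column. The summed level of 14 granulosa cell markers was 57.4, 83.1, 46.5 and 62.7 FPKM in MTR4-null nuclei, WT nuclei, MTR4-null cytoplasms and WT cytoplasms, and was highest in WT nuclei. These markers did not move together: between nuclei, of the 12 above the filter, 4 were called higher in MTR4-null and 3 lower. Among all genes 23.9% were higher and 12.3% lower. The 4 higher markers were low, at 6.15 FPKM or less in MTR4-null nuclei and below 1 FPKM in WT nuclei. Amh was at 1.44 FPKM in MTR4-null nuclei and 0 in WT nuclei, whereas Cyp11a1 had 1.47 FPKM in MTR4-null nuclei against 21.3 FPKM in WT nuclei and Inha 11.9 FPKM against 21.4 FPKM. The part of granulosa cell RNA in the genotype differences was not tested. Genes of small RNAs took 53.5%, 57.7%, 39.0% and 4.09% of the FPKM sum in the same columns. The WT cytoplasm stands apart in this share, and cytoplasmic genotype differences are therefore given under several scalings. FPKM are shares of a library, so that less of one RNA and more of the others cannot be told apart, nor can fewer cells that express a gene and less of its RNA per cell.

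All 76 genes were expressed. In every column the median of the 76 was above that of the 14270 genes that reached 1 FPKM in at least 1 column, the filter used throughout. It was 27.9 FPKM in MTR4-null nuclei, 18.99 FPKM in WT nuclei, 17.9 FPKM in MTR4-null cytoplasms and 20.1 FPKM in WT cytoplasms, against 10.6, 7.46, 6.60 and 6.86 FPKM for all genes. The summed level was 2482 FPKM in MTR4-null nuclei against 1967 FPKM in WT nuclei, and 1581 FPKM in MTR4-null cytoplasms against 2240 FPKM in WT cytoplasms. All 76 passed 1 FPKM in at least 1 column and 74 passed 5 FPKM. The other genes, Mrpl11 and Mrpl19, peaked just below 5 FPKM in MTR4-null nuclei.

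Although the proteins assemble into one particle, the mRNA levels spanned a wide range. In WT cytoplasms they ran from 1.43 FPKM for Mrpl19 to 165 FPKM for Mrpl48. The highest mean over the 4 columns among large subunit genes belonged to Mrpl48 at 112 FPKM, followed by Mrpl14 at 93.7, Mrpl9 at 78.5, Mrpl34 at 64.8 and Mrpl18 at 61.3 FPKM. Among small subunit genes it was Mrps21 at 65.5 FPKM, then Mrps33 at 60.1, Mrps18c at 44.8, Mrps7 at 44.4 and Mrps22 at 41.5 FPKM. Mrpl14, Mrpl9, Mrpl34, Mrpl18, Mrps21, Mrps18c and Mrps7 have bacterial counterparts, and Mrpl48, Mrps33 and Mrps22 are proteins of the mitochondrial ribosome alone. The lower and upper quartiles of the 76 genes were 14.0 and 46.8 FPKM in MTR4-null nuclei, 9.25 and 33.1 in WT nuclei, 9.27 and 27.3 in MTR4-null cytoplasms, and 11.6 and 39.3 in WT cytoplasms. The levels of the genes were more alike between compartments than between genotypes. The 76 genes within a column share its libraries and scaling, and nucleus and cytoplasm are separate libraries. Over these genes, nucleus and cytoplasm had a Pearson's r, on log2(FPKM + 1), of 0.82 in MTR4-null and 0.90 in WT. Between MTR4-null and WT it was 0.70 for nuclei and 0.69 for cytoplasms. Over all 14270 genes the same values were 0.92, 0.88, 0.79 and 0.83.

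**Figure D2:**
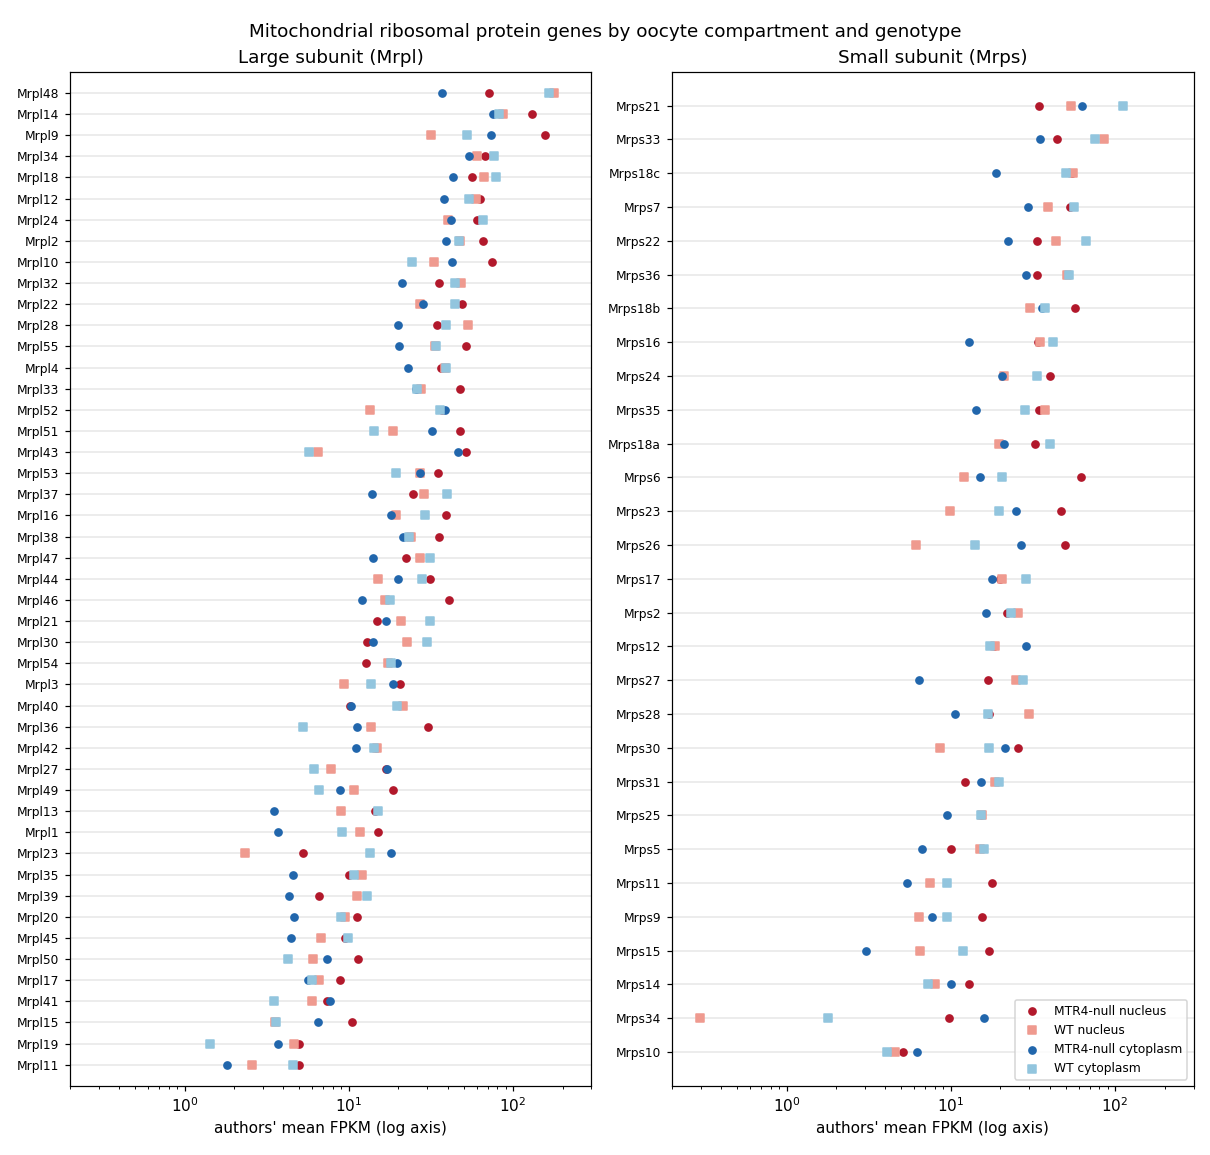
Each row is a gene, ordered by its mean, and each point the authors' mean FPKM of a group on a log axis, with large subunit genes left and small subunit genes right. Mrpl48 leads in WT, Mrpl9 leads in MTR4-null nuclei at 156 FPKM, and the lowest point is Mrps34 in WT nuclei at 0.296 FPKM.

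The first comparison asked how the nuclear RNA of these genes differed without MTR4. A gene was called higher or lower where its log2(FPKM + 1) values in 2 columns lay 2-fold or more apart, a scale that understates differences of low genes. In MTR4-null nuclei 19 of the 76 genes were called higher and 2 lower. That is 25% and 2.63%, beside 23.9% higher and 12.3% lower of all 14270 genes. The share of higher genes is thus near the background, and the share of lower genes is below it. The median log2 difference of the 76 was 0.41, against 0.21 for all genes, and 47 of 76 lay above 0. That median depends on the scaling, being 0.055 when centred within groups of like GC content, and 38 of 76 lay above 0 in all 4 scalings set out below. Against that overall shift, that is, centred on the median of all genes, 12 were higher and 3 lower, beside 18.9% higher and 16.4% lower of all genes. Among genes at 5 FPKM or more in at least 1 column the counts were again 19 and 2, of 74, beside 25.1% and 10.1%.

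A few genes accounted for the far end of the nuclear differences. Among large subunit genes, Mrpl43, a protein found only in the mitochondrial ribosome, had 52.0 FPKM in MTR4-null nuclei against 6.48 FPKM in WT nuclei, a log2 difference of 2.83. Mrpl9, the counterpart of bacterial L9, had 156 FPKM in MTR4-null nuclei against 31.6 FPKM in WT nuclei, a log2 difference of 2.27. Mrpl52, another protein without a bacterial counterpart, had 36.9 FPKM against 13.6 FPKM in the same columns, a log2 difference of 1.38. All 3 were higher in the nucleus without MTR4, and Mrpl9 there reached the highest level of any member in any MTR4-null column.

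Among small subunit genes the largest difference was that of Mrps34, which is specific to mitochondria. Mrps34 had 9.73 FPKM in MTR4-null nuclei against 0.296 FPKM in WT nuclei, a log2 difference of 3.05, and was the only member below 1 FPKM in any column. Mrps26, also without a bacterial counterpart, had 49.6 FPKM in MTR4-null nuclei against 6.14 FPKM in WT nuclei, a log2 difference of 2.83. Mrps6, the counterpart of bacterial S6, had 62.1 FPKM against 12.0 FPKM, a log2 difference of 2.28. Mrps26 and Mrps6 were above the small subunit median of 25.6 FPKM in MTR4-null nuclei and below that of 19.6 FPKM in WT nuclei, and Mrps34 was below both. Mrps23, specific to mitochondria, had 46.6 FPKM in MTR4-null nuclei against 9.89 FPKM in WT nuclei, a log2 difference of 2.13. Mrps30, named as a small subunit protein but found in the large subunit in structures, had 25.6 FPKM against 8.63 FPKM, a log2 difference of 1.46.

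The 2 genes lower in MTR4-null nuclei were both of the large subunit and without a bacterial counterpart. Mrpl48 had 71.2 FPKM in MTR4-null nuclei against 176 FPKM in WT nuclei, a log2 difference of -1.30. Mrpl40 had 10.2 FPKM against 21.4 FPKM, a log2 difference of -1.0 that just reached the limit. Just inside the limit for higher genes was Mrpl44 at 1.01, and just outside were Mrpl16 at 0.98 and, on the lower side, Mrps33 at -0.93. The differences were set out under 4 scalings of the columns, namely FPKM as deposited, centring on the median of all genes, rescaling to the FPKM sum without small RNA genes, and centring within groups of like GC content. In all 4 of them 9 genes were called higher in MTR4-null nuclei, namely Mrpl15, Mrpl43, Mrpl51, Mrpl9, Mrps23, Mrps26, Mrps30, Mrps34 and Mrps6, and Mrpl40 and Mrpl48 were lower in all 4. That is 11.8% and 2.63% of the 76, beside 15.0% higher and 11.1% lower in all 4 of 12990 coding genes, so that such higher calls were no more frequent here than among coding genes as a whole.

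The second comparison was the same between cytoplasms, and its counts turned with the scaling. As deposited, 4 of the 76 genes were called higher in MTR4-null cytoplasms and 17 lower, or 5.26% and 22.4%, beside 15.0% higher and 21.4% lower of all genes. Centred on the median of all genes, 9 were higher and 9 lower, beside 19.6% and 13.0% of all genes. Rescaled to the FPKM sum without small RNA genes, 15 were higher and 5 lower (19.7% and 6.58%), beside 22.6% and 7.51% of all genes. The median log2 difference as deposited was -0.57 for the 76 genes against -0.26 for all genes, and 23 of 76 lay above 0. Among genes at 5 FPKM or more the counts were 4 and 17 of 74, beside 14.8% and 26.2% of all genes at that level. In all 4 scalings the members' median stayed below that of all genes, by 0.31 as deposited and by 0.12 after the rescaling.

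The 4 genes higher in the MTR4-null cytoplasm (5.26%) kept that call in all 4 scalings, beside 13.3% of the 12990 coding genes. Mrpl43 had 46.1 FPKM in MTR4-null cytoplasms against 5.73 FPKM in WT cytoplasms, a log2 difference of 2.81. Mrps34 had 15.9 FPKM against 1.78 FPKM, a log2 difference of 2.61. Their cytoplasmic differences were nearly as large as their nuclear ones. Mrpl27, the counterpart of bacterial L27, which lies near the peptidyl transferase centre, had 17.1 FPKM in MTR4-null cytoplasms against 6.14 FPKM in WT cytoplasms, a log2 difference of 1.34. Mrpl51, without a bacterial counterpart, had 32.2 FPKM against 14.2 FPKM, a log2 difference of 1.13. Just outside the limit was Mrpl36 at 0.96.

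Of the large subunit genes lower in MTR4-null cytoplasms, Mrpl48 stood first, with 37.0 FPKM in MTR4-null cytoplasms against 165 FPKM in WT cytoplasms, a log2 difference of -2.13. Mrpl13, the counterpart of bacterial L13, had 3.50 FPKM against 15.0 FPKM, a log2 difference of -1.83. Mrpl37 and Mrpl39, which are specific to mitochondria, had log2 differences of -1.45 and -1.39. Mrpl37 was at 13.9 FPKM in MTR4-null against 39.5 FPKM in WT cytoplasms, and Mrpl39 at 4.35 FPKM against 13.0 FPKM.

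Of the small subunit genes, Mrps27, an RNA-binding pentatricopeptide repeat protein, had 6.40 FPKM in MTR4-null cytoplasms against 27.7 FPKM in WT cytoplasms, a log2 difference of -1.96. Mrps15, the counterpart of the bacterial rRNA-binding protein S15, had 3.03 FPKM against 11.9 FPKM, a log2 difference of -1.67. Mrps16, the counterpart of bacterial S16, had 12.9 FPKM against 41.9 FPKM, a log2 difference of -1.62. These genes were at 13 FPKM or less in the MTR4-null cytoplasm. Mrps22, specific to mitochondria, had 22.3 FPKM in MTR4-null cytoplasms against 66.5 FPKM in WT cytoplasms, a log2 difference of -1.54. Mrpl13, Mrpl48, Mrps15, Mrps16 and Mrps27 (6.58% of the 76) were called lower in all 4 scalings, beside 6.97% of the coding genes, and the other lower genes were not. Just inside the limit was Mrpl45 at -1.01, and just outside Mrpl11 at -0.99.

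Genes with the ETS letters before the start were called in both directions. Between nuclei, 7 of the 24 genes with them were called higher and 1 lower, against 10 and 1 of the 43 without them. Among all genes 23.9% were higher and 12.3% lower. In the cytoplasm, as deposited, 3 of the 24 were called higher and 6 lower, against 0 and 10 of the 43. Beside these stand 15.0% and 21.4% of all genes. The 3 were Mrpl43, Mrpl27 and Mrpl51, and Mrps34, also called higher there, had no window.

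Few genes were called in the same direction in both compartments. Called higher in MTR4-null in both compartments were 4 genes (5.26%), beside 9.59% of all genes, and these were Mrpl43, Mrps34, Mrpl51 and Mrpl27. Mrpl51 had 47.7 FPKM in MTR4-null nuclei against 18.5 FPKM in WT nuclei, and Mrpl27 had 16.9 FPKM against 7.78 FPKM, log2 differences of 1.32 and 1.03. Mrpl48 alone was called lower in both, beside 5.07% of all genes. Mrps15 was called higher between nuclei and lower between cytoplasms, as were 0.498% of all genes. It had 17.1 FPKM in MTR4-null nuclei against 6.52 FPKM in WT nuclei. As deposited, 26 of 76 genes (34.2%) lay above 0 in the nucleus and below 0 in the cytoplasm, beside 26.6% of all genes, and 2 (2.63%) the other way, beside 7.71%. The sign of a difference changed between scalings for 9 of the 76 genes in the nucleus and 15 in the cytoplasm.

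**Figure D3:**
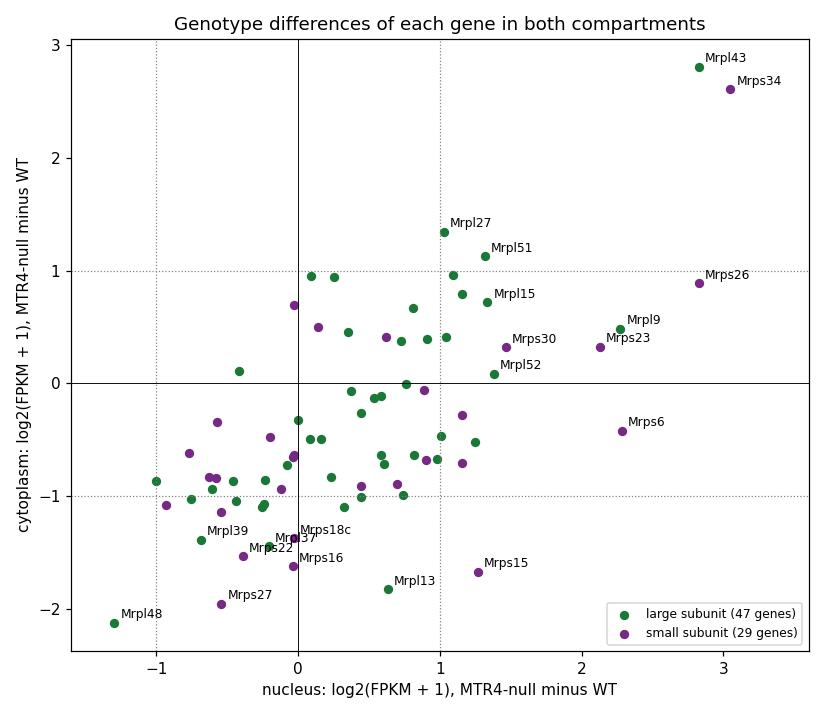
Each point is a gene, with its log2(FPKM + 1) difference, MTR4-null minus WT, in the nucleus across and in the cytoplasm upward, and dotted lines at a 2-fold difference. Mrpl43 and Mrps34 lie farthest to the upper right, with Mrpl51 and Mrpl27 just beyond both lines, Mrpl48 at the lower left, and Mrps15 at the lower right with 1.27 and -1.67.

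Large and small subunit genes were set side by side. In MTR4-null nuclei the median level was 30.2 FPKM for the large and 25.6 FPKM for the small subunit, in WT nuclei 18.5 and 19.6 FPKM, in MTR4-null cytoplasms 18.1 and 16.5 FPKM, and in WT cytoplasms 19.7 and 20.6 FPKM. The medians of the subunits were thus close in each column, beside quartiles that lay at least 2.38-fold apart within each. Between nuclei 11 of 47 large subunit genes were called higher in MTR4-null and 2 lower, against 8 and 0 of 29 small subunit genes. That is 23.4% and 4.26% of the large and 27.6% and 0% of the small subunit. Beside these stand 23.9% higher and 12.3% lower of all genes, so the shares of higher genes were near the background. The median log2 difference was 0.45 for the large and -0.03 for the small subunit, although the small subunit held 4 of the 6 largest differences. The nuclear difference lay above 0 in 33 of 47 large subunit genes and in 14 of 29 small subunit genes. In all 4 scalings it did so in 25 and 13. Centred within groups of like GC content the medians were 0.27 for the large and -0.03 for the small subunit, so the gap between subunits was 0.30 there and 0.47 as deposited. In the cytoplasm, as deposited, 3 of 47 large subunit genes were higher and 10 lower, against 1 and 7 of 29 small subunit genes. That is 6.38% and 21.3% against 3.45% and 24.1%, beside 15.0% higher and 21.4% lower of all genes. The shares of lower genes were thus near the background. The cytoplasmic medians were -0.49 for the large and -0.66 for the small subunit. Rescaled, the cytoplasmic medians were 0.09 and -0.09, so that the sign for the large subunit depends on the scaling. Genes are not replicates of a condition, and no test was made of the difference between subunits.

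Sorted by ancestry, 10 of 48 genes with a bacterial counterpart were called higher in MTR4-null nuclei and 0 lower. Of 27 genes specific to mitochondria 9 were higher and 2 lower, beside 23.9% and 12.3% of all genes. Centred on all genes, the counts were 4 and 0 against 8 and 3, beside 18.9% and 16.4% of all genes. In the cytoplasm they were 1 higher and 10 lower against 3 and 7 as deposited, beside 15.0% and 21.4% of all genes. When centred they were 4 and 4 against 5 and 5, beside 19.6% and 13.0%. Genes specific to mitochondria therefore made up more of the genes called between nuclei than their number among the members, which was not tested. In both groups the share of lower genes between nuclei was below that of all genes. The 2 lower genes as deposited were Mrpl48 and Mrpl40, the latter at the limit.

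Some symbols do not tell the subunit. The name Mrps18 is shared by 3 paralogs, of which Mrps18a sits in the large subunit and Mrps18b and Mrps18c in the small subunit. Mrps18a had 32.3 FPKM in MTR4-null nuclei against 19.6 FPKM in WT nuclei, and 21.1 FPKM in MTR4-null cytoplasms against 40.2 FPKM in WT cytoplasms. Mrps18b had 57.3 against 30.5 FPKM between nuclei and 36.1 against 37.6 FPKM between cytoplasms. Mrps18c had 54.4 against 55.6 FPKM between nuclei and 18.8 against 50.4 FPKM between cytoplasms, a log2 difference of -1.38. Of the paralogs only Mrps18c passed the 2-fold limit between genotypes. Mrps36, now known as a subunit of the oxoglutarate dehydrogenase complex, had 33.6 against 50.6 FPKM between nuclei and 28.8 against 52.3 FPKM between cytoplasms. Mrpl42, once also counted with the small subunit, had 14.7 against 14.8 FPKM and 11.1 against 14.2 FPKM in the same order and was the member with the smallest nuclear difference, at -0.0042.

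The compartments were then compared within each genotype, the nucleus over the cytoplasm. In WT, 2 of the 76 genes were called higher in the nucleus and 6 lower, or 2.63% and 7.89%, beside 12.4% and 4.71% of all genes. The median log2 difference was -0.07 against -0.04 for all genes. Mrpl36, the counterpart of the smallest bacterial large subunit protein, had 13.6 FPKM in WT nuclei against 5.30 FPKM in WT cytoplasms, a log2 difference of 1.22, and the other higher gene, Mrpl19, had 4.63 FPKM against 1.43 FPKM. Mrpl23, whose bacterial counterpart lines the exit of the peptide tunnel, had 2.33 FPKM in WT nuclei against 13.5 FPKM in WT cytoplasms, a log2 difference of -2.13. Mrpl52 had 13.6 FPKM against 36.01 FPKM, a log2 difference of -1.35. Most genes thus had like FPKM in WT nuclei and WT cytoplasms, which are shares of separate libraries and not amounts of RNA. Mrpl23 and Mrpl52 were lower in the nucleus in all 4 scalings, and Mrpl19 and Mrpl36 higher. These are 2.63% of the 76 each way, beside 10.2% higher and 3.39% lower of the coding genes. Mrps26 had 6.14 FPKM in WT nuclei against 14.1 FPKM in WT cytoplasms, a log2 difference of -1.08. Mrps21, the counterpart of bacterial S21, had 53.5 FPKM against 112 FPKM, a log2 difference of -1.05.

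In MTR4-null oocytes, 16 of the 76 genes were called higher in the nucleus than in the cytoplasm and 1 lower, or 21.1% and 1.32%, beside 17.0% and 1.84% of all genes. The median log2 difference was 0.64 against 0.52 for all genes, and after centring on all genes 6 were higher and 5 lower (7.89% and 6.58%), beside 4.96% and 5.66% of all genes. In all 4 scalings 5 were higher and 1 lower (6.58% and 1.32%), beside 3.39% and 1.43% of the coding genes. Mrps15 had 17.1 FPKM in MTR4-null nuclei against 3.03 FPKM in MTR4-null cytoplasms, a log2 difference of 2.17, and Mrps6 had 62.1 FPKM against 15.1 FPKM, a difference of 1.97. Mrpl13 had 14.3 FPKM against 3.50 FPKM, a log2 difference of 1.77. Mrpl1, whose bacterial counterpart forms the L1 stalk, had 15.0 FPKM in MTR4-null nuclei against 3.69 FPKM in MTR4-null cytoplasms, a log2 difference of 1.77. In WT the same 4 genes were closer between compartments, with Mrps15 at 6.52 FPKM in nuclei against 11.9 FPKM in cytoplasms, Mrps6 at 12.0 against 20.6, Mrpl13 at 8.91 against 15.0 and Mrpl1 at 11.8 against 9.06 FPKM. Mrpl23 was lower in the nucleus in this genotype too, with 5.25 FPKM in MTR4-null nuclei against 18.1 FPKM in MTR4-null cytoplasms, a log2 difference of -1.61. The compartment and genotype comparisons share columns, so their values are given side by side only. Malat1, Neat1, Kcnq1ot1 and Meg3 were listed as nuclear long RNAs. In WT all 4 were called higher in the nucleus, with a median log2 difference of 2.76. In MTR4-null 2 of the 4 were, with a median of 0.57. Malat1 had 181 FPKM in WT nuclei against 8.63 FPKM in WT cytoplasms, and 173 against 69.6 FPKM in MTR4-null. These RNAs were thus less apart between compartments in MTR4-null than in WT. The part of this in the cytoplasmic genotype differences and in the MTR4-null compartment differences was not tested. The sign of the MTR4-null compartment difference changed between scalings for 20 of the 76 genes.

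Proteins of the mitochondrial ribosome that carry other symbols were 7 genes. None of them was called between nuclei, beside 23.9% higher and 12.3% lower of all genes. Gadd45gip1, a large subunit protein, was the highest, with 101 FPKM in MTR4-null nuclei against 100.4 FPKM in WT nuclei. Between cytoplasms 4 of the 7 were called lower in MTR4-null as deposited, beside 21.4% of all genes. Dap3, a GTP-binding protein of the small subunit, had 10.7 FPKM in MTR4-null cytoplasms against 37.3 FPKM in WT cytoplasms, a log2 difference of -1.72. Ict1, a peptidyl-tRNA hydrolase built into the large subunit, had 15.4 FPKM against 51.0 FPKM, a difference of -1.67. Gadd45gip1 and Aurkaip1 had differences of -1.12 and -1.03, and those of Ptcd3, Chchd1 and Mrp63 were -0.75, -0.41 and 0.73.

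Factors that assemble the mitochondrial ribosome, such as rRNA methyltransferases and GTPases, were a list of 23 genes. Of these, 11 (47.8%) were called higher in MTR4-null nuclei and 1 lower, beside 23.9% and 12.3% of all genes, and the median log2 difference was 0.93. Between cytoplasms 6 (26.1%) were higher and 1 lower as deposited, beside 15.0% and 21.4%, with a median of 0.24. After centring on all genes the counts were 9 and 2 in the nucleus, beside 18.9% and 16.4% of all genes, and 9 and 1 in the cytoplasm, beside 19.6% and 13.0%. The shares of higher assembly genes thus lay above the background, and no test of the list was made. Mrm1, which methylates the large mitochondrial rRNA, had 18.4 FPKM in MTR4-null nuclei against 0.126 FPKM in WT nuclei, and 14.8 FPKM in MTR4-null cytoplasms against 0.260 FPKM in WT cytoplasms. Its log2 differences were 4.11 and 3.64. The other 2'-O-methyltransferases of that rRNA were also higher, with Rnmtl1 (Mrm3) at 9.84 against 1.68 FPKM between nuclei and 6.41 against 0.118 FPKM between cytoplasms, and Ftsj2 (Mrm2) at 8.75 against 3.76 FPKM and 13.0 against 1.45 FPKM. Rpusd4, a pseudouridine synthase, had 41.8 against 8.45 FPKM between nuclei and 37.7 against 12.3 FPKM between cytoplasms. Wbscr16 (Rcc1l) had nuclear levels of 5.55 against 1.06 FPKM, a log2 difference of 1.67. Nsun4, an rRNA methyltransferase that also joins the subunits, went the other way in the cytoplasm, with 18.3 FPKM in MTR4-null against 59.0 FPKM in WT, a log2 difference of -1.64.

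Translation factors of mitochondria were 15 genes, of which 4 were called higher in MTR4-null nuclei and 0 lower. Among all genes these shares were 23.9% and 12.3%. In MTR4-null cytoplasms 2 were higher and 2 lower as deposited, beside 15.0% and 21.4% of all genes. Their counts under other scalings are not given here. The elongation factor genes Tsfm and Tufm had nuclear log2 differences of 2.09 and 1.70, with 43.9 against 9.54 FPKM for Tsfm and 26.3 against 7.39 FPKM for Tufm in MTR4-null and WT nuclei. The initiation factor gene Mtif2 had a nuclear difference of 1.16 and the formyltransferase gene Mtfmt 0.84. In the cytoplasm Mtfmt had a difference of 1.15, and the elongation factor genes Gfm1 and Gfm2 -1.12 and -0.999, the last just short of the limit. The translational activator gene Taco1 differed in sign between compartments, with 4.52 against 0.804 FPKM between nuclei, a log2 difference of 1.61, and 0.832 against 5.07 FPKM between cytoplasms, a difference of -1.73.

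Subunits of oxidative phosphorylation encoded in the nucleus had counts close to those of the ribosomal proteins. Of 76 expressed genes, 17 were called higher and 3 lower in MTR4-null nuclei, beside 23.9% and 12.3% of all genes. In MTR4-null cytoplasms 1 was higher and 17 lower as deposited, beside 15.0% and 21.4%. The shares of higher genes between nuclei and of lower genes between cytoplasms were thus near the background. The median log2 differences of these subunits were 0.32 and -0.64. Uqcrb of complex III had 67.6 FPKM in MTR4-null nuclei against 6.92 FPKM in WT nuclei, a log2 difference of 3.11, and Atp5g3 of the ATP synthase had 136 FPKM against 16.1 FPKM, a difference of 2.997. The muscle and heart forms Cox7a1 and Cox6a2 had 0.444 and 0.779 FPKM in MTR4-null nuclei against 32.2 and 13.1 FPKM in WT nuclei. In the cytoplasm Ndufs5 of complex I had 0.416 FPKM in MTR4-null against 7.31 FPKM in WT, a log2 difference of -2.55. Uqcrc1 of complex III, the single higher gene, had 24.4 FPKM against 5.69 FPKM, a difference of 1.92, while Ndufa7 and Ndufa9 of complex I had differences of -1.81 and -1.70. Of 81 ribosomal protein genes of the cytosol, 13 were higher and 1 lower in MTR4-null nuclei. In MTR4-null cytoplasms 4 were higher and 13 lower as deposited, and the medians were 0.50 and -0.40. All of these counts were smaller shares than those of all genes. Cytoplasmic counts of both lists are not given under other scalings here. Levels of the cytosolic genes were several times those of the mitochondrial set. Their medians were 129 FPKM in MTR4-null nuclei against 103 FPKM in WT nuclei, and 84.8 FPKM in MTR4-null cytoplasms against 119 FPKM in WT cytoplasms.

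**Figure D4:**
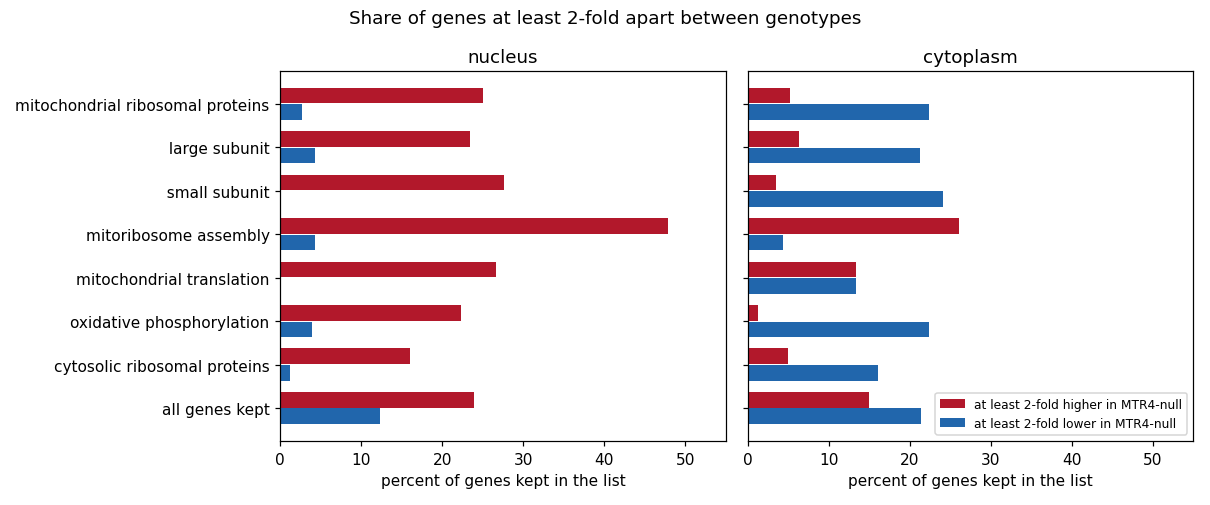
Bars give the percentage of genes in each list at least 2-fold higher (red) or lower (blue) in MTR4-null than in WT, left for the nucleus and right for the cytoplasm, FPKM as deposited. The red bar of the mitochondrial ribosomal proteins in the nucleus (25%) is close to that of all genes (23.9%), and the assembly factors have the longest (47.8%).

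The position of the genes bears on how their reads are assigned, since the labels do not say whether counting used the strand. In GENCODE M21 (GRCm38), 25 of the 76 genes (32.9%) share exon sequence with another gene, beside 29.9% of 12993 expressed genes matched to that annotation. Of these 25, 9 were called higher and 1 lower in MTR4-null nuclei, against 10 and 1 of the 51 without overlap. Among all genes kept, with or without overlap, 23.9% were higher and 12.3% lower. The share for all genes with overlap was not computed, and the part of overlap in the calls was not tested. Mrpl43 overlaps Twnk (Peo1), the gene of the mitochondrial helicase Twinkle, on the opposite strand. Peo1 had 10.00 FPKM in MTR4-null nuclei against 8.87 FPKM in WT nuclei, and 8.47 FPKM in MTR4-null cytoplasms against 10.03 FPKM in WT cytoplasms. Its levels were thus near equal between genotypes where those of Mrpl43 were not. Mrpl9 overlaps Oaz3, which had 3.97 FPKM in MTR4-null nuclei against 0.982 FPKM in WT nuclei. Mrps6 shares exons on the same strand with the inositol transporter gene Slc5a3, which had 4.61 against 2.90 FPKM between nuclei, and reads of these cannot be told apart in full. Mrpl48 overlaps Rab6a, which had 34.2 against 34.6 FPKM between nuclei and 20.3 against 48.6 FPKM between cytoplasms. Mrpl27 overlaps Eme1, Mrps26 overlaps 4930473A02Rik and Mrps27 overlaps 6430562O15Rik, all on the opposite strand.

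A coding neighbour on the opposite strand started within 1000 bp, head to head, for 17 of the 76 genes (22.4%), beside 9.92% of the same 12993 genes. In 16 pairs both genes were measured above the filter. Over these pairs, Pearson's r between the log2 genotype differences of member and neighbour was 0.36 between nuclei and 0.66 between cytoplasms, but -0.09 and 0.42 without the pair of Mrps34 and Eme2. Eme2, a subunit of a DNA repair endonuclease, had 31.9 FPKM in MTR4-null nuclei against 4.87 FPKM in WT nuclei and 23.7 FPKM in MTR4-null cytoplasms against 6.26 FPKM in WT cytoplasms. Its log2 differences of 2.49 and 1.77 had the sign of those of Mrps34. The mitochondrial ribosomal protein genes had shorter transcripts than the rest, with a median of 1302 nt against 3034 nt of 12990 coding genes, and like GC content, 50.5% against 50%. Pearson's r between GC content and the genotype difference over the 76 genes was 0.16 between nuclei and 0.12 between cytoplasms, and 0.22 and 0.19 over those coding genes.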

How the data were processed

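Ribosomal RNA was depleted from total RNA, and libraries of selected fragment size were read as pairs on an Illumina instrument, per the labels' protocols. The authors deposited FPKM, with 1 column per group, in a single table. TopHat2 2.1.1, Cufflinks 2.2.1 and the build mm9 are named in the submitters' processing notes, which give no settings. The sources used here do not say how many libraries went into each mean, read depth is unknown, and no interval or floor can be given. An unnamed row holding the sum of each column, 50% of all values, was left out.

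From these values log2(FPKM + 1) differences between columns were computed with pandas 2.3.3 and numpy 2.4.6 in Python 3.11.15. Genes at 1 FPKM or more in at least 1 of 4 columns were kept, 14270 in all, and a gene was counted at a 2-fold difference. The planned limma model needs single libraries and could not be run, so the text holds no p-value. The counting was tested on simulated columns. Gene structures, lengths and GC content came from GENCODE M21 and promoter windows from RefSeq, both GRCm38. As the files use mm9, symbols alone linked them. No protein sequence was used here.

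Named by rule were the 5 highest members of each subunit, up to 8 members per direction for each genotype comparison and 4 for each compartment comparison, with 5 FPKM or more in whichever column was higher, members 2-fold apart in both compartments, members whose subunit the symbol leaves unclear, and up to 4 genes of each mitochondrial list. Mrpl19, Mrpl44, Mrpl45, Mrpl16, Mrpl11 and the neighbouring genes were named besides. The members and lists were chosen with earlier results of these data known. Alternatives were pseudocounts of 0.1 and 5, no filter and a filter of 5 FPKM, centring on all genes, rescaling without small RNA genes, centring within 5 groups by GC content, and subunits told by structure.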

Additional observations from a re-analysis of the deposited data

Results flagged for a closer look

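Mrps15 was singled out, as its genotype differences in the 2 compartments had opposite signs, each at least 2-fold. The log2 difference of MTR4-null over WT was 1.27 in the nucleus and -1.67 in the cytoplasm. The difference between these effects was not tested, since each rests on 1 column per group. The sign in each compartment was the same in all 4 scalings, with a range of 0.93 to 1.27 in the nucleus and of -1.67 to -1.19 in the cytoplasm.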

How the results depend on the processing

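No paired analysis was possible because the table holds 1 column per group, and for the same reason no library could be left out in turn. Counts of the 76 genes are given as higher and lower in the group named first. Centred on all genes, 18.9% of all genes were higher and 16.4% lower between nuclei, and 19.6% and 13.0% between cytoplasms. Rescaled, 22.6% and 7.51% were so between cytoplasms. Centred, 4.96% and 5.66% were so between MTR4-null compartments. Shares of all genes with other pseudocounts and by GC content are not given here, so those counts are not read as particular to the members. Between nuclei, MTR4-null over WT, the 19 higher genes became 11 with a pseudocount of 5, 12 when centred on all genes or rescaled without small RNA genes, and 10 when centred by GC content. The 2 lower genes became 1 with a pseudocount of 5 and 5 by GC content, and 10.6% of the large subunit were higher by GC content. Between cytoplasms the 4 higher genes became 7 with a pseudocount of 0.1, 2 with 5, 9 when centred, 15 when rescaled and 11 by GC content. The 17 lower genes became 9 with a pseudocount of 5, 9 when centred, 5 when rescaled and 7 by GC content. Of the large subunit there, 23.4% were higher when rescaled and 19.1% by GC content, and 6.38%, 8.51%, 4.26% and 6.38% were lower with a pseudocount of 5, centred, rescaled and by GC content. For the nucleus over the cytoplasm in WT, the 2 higher genes became 0 with a pseudocount of 5 and 1 at the 5 FPKM filter, and the 6 lower genes 2, 3 and 3 with a pseudocount of 5, rescaled and by GC content. The shares of the large subunit higher and of the small subunit lower were then 0% with a pseudocount of 5, and the small subunit share was 3.45% when rescaled or by GC content. The WT median reversed, being -0.07 as deposited, 0.070 when rescaled and 0.015 by GC content. In MTR4-null the 16 higher genes became 6, 5 and 6 and the single lower gene became 5, 5 and 5 when centred, rescaled and by GC content, with 6.38% of the large subunit higher in all 3 and 6.90% of the small subunit when rescaled. With subunits told by structure, the small subunit median was 21.04 FPKM in MTR4-null nuclei, 15.6 FPKM in MTR4-null cytoplasms and 20.1 FPKM in WT cytoplasms, that of the large subunit was 18.6 FPKM in MTR4-null cytoplasms, and the median of large minus small for MTR4-null compartments reversed to -0.014. Fewer genes pass a larger pseudocount by construction, and the cause of the other changes was not tested. With a single column per group the error of each value is unknown.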
